A study of Homo sapiens with 7 samples.

Results

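The genes described here are the aryl hydrocarbon receptor gene AHR, the gene of its dimer partner ARNT, the genes of its feedback inhibitors AHRR and TIPARP, and the CYP1 genes CYP1A1, CYP1A2 and CYP1B1. They were chosen by name, as every probe set that the platform annotation assigns to 1 of these 7 genes alone, which gave 17 of the 54675 probe sets on the array and 7 of 19775 genes. The cells were HT1080, an established line from a human fibrosarcoma, in 7 cultures with 1 array each. The treated cultures received 11.25 ng/ml of catechin, 6.25 ng/ml of epicatechin, 6.25 ng/ml of taxifolin, 2195 ng/ml of resveratrol, or 5% serum taken from people who had received the pine bark extract pycnogenol, all for 2 h. The references were 5% control serum for 2 h and an untreated culture, for which the labels state neither a time nor a medium change or solvent. All cultures were kept in medium with 10% fetal bovine serum beforehand, and the labels do not say whether the medium given with the compounds held it, nor how many donors a serum came from.

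The aryl hydrocarbon receptor is a transcription factor of the bHLH-PAS family that waits in the cytosol in a complex with HSP90 and p23 until a planar aromatic ligand binds. It then enters the nucleus, pairs with ARNT and binds a core DNA motif, GCGTG, near genes of foreign-compound metabolism, of which CYP1A1 is the classical target. AHRR competes with the receptor for ARNT, and TIPARP, also called PARP7, attaches ADP-ribose to the receptor and limits its activity. Many plant polyphenols act on this receptor as ligands or inhibitors in other systems, and resveratrol is known there as an antagonist.

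The start-site windows were searched for the motif through which the receptor is known to act. Those printed were among the windows that hold it. RefSeq windows on GRCh38.p14, reaching from 250 bases before to 50 bases after an annotated start, were at hand for 6 of the 7 genes, with 2 windows for AHRR and 3 for TIPARP, and CYP1B1 was not in the table. Both strands were searched for GCGTG and for the longer TNGCGTG, every match of which also holds GCGTG. Printed below, 5′ to 3′ on the gene's strand, are the 250 bases before the first listed start of CYP1A1 (chr15:74725529-74725778, minus strand), AHRR (chr5:321464-321713, plus strand) and TIPARP (chr3:156674340-156674589, plus strand), with the core motif or its reverse complement in capitals.
CYP1A1: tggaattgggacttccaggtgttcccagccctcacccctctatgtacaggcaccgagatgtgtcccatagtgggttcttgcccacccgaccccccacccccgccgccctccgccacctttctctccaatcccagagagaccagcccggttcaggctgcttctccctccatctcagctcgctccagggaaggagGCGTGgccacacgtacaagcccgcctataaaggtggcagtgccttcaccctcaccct
AHRR: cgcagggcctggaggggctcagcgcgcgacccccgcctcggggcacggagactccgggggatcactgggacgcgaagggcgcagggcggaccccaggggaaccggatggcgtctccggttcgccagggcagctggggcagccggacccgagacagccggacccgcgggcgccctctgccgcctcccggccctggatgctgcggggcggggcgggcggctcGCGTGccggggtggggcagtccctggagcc
TIPARP: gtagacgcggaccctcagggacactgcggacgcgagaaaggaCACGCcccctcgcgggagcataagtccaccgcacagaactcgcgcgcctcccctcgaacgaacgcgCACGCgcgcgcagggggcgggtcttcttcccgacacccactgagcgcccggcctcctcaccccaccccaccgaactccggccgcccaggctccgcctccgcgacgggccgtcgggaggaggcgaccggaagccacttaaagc

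The CYP1A1 window held 1 core motif, which begins at -57 where the start base is 1, and the best known receptor-binding elements of this gene lie further upstream than the window. The first AHRR window held 1 core motif at -30, the single match to the longer TNGCGTG among these genes, and the second AHRR window held 2. The first TIPARP window held 2 on the opposite strand, at -208 and -142, and the other TIPARP windows held none. AHR itself held 1 just after its start, at position 38, and the windows of ARNT and CYP1A2 held none. Of all 35116 windows of this length in the table, 36.5% held GCGTG and 5.5% held TNGCGTG, so a match to the core alone is common. A match describes letters and not a bound site.

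**Figure D1:**
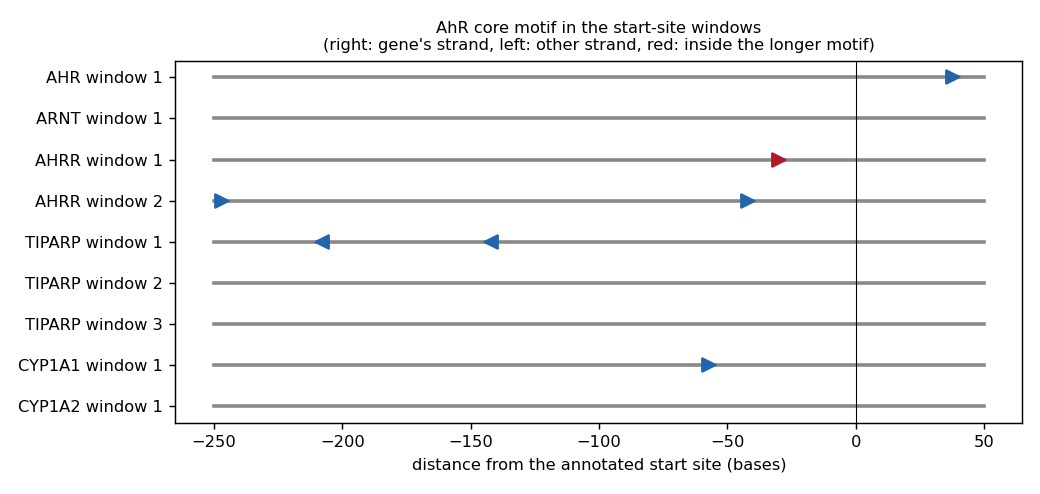
Positions of the core motif GCGTG in the start-site windows of 6 genes, with the distance from the annotated start in bases on the horizontal axis and 1 row per RefSeq window. Right-pointing triangles mark the gene's own strand and left-pointing ones the other strand, and the red triangle at -30 in the first AHRR window is the match to TNGCGTG.

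Values are the deposited MAS5 signals on a linear scale, read for each gene from its brightest probe set by mean log2 signal over the arrays. Signals under 34.9 were raised to it before differences were taken. A gene was compared when its mean log2 signal reached 8.07, which is a signal of 269 and the median over genes, and 9888 genes met this. Of the 7 genes, AHR, ARNT, AHRR, TIPARP, CYP1A1 and CYP1A2 did and CYP1B1 did not. With 1 array a culture there is no replicate error and no test, so each difference describes a pair of arrays. The central 95% of differences over all compared genes is given as a yardstick of how far any gene moved between the same arrays. This range pools bright and dim genes, and large differences were more common among dim ones. With catechin against untreated 45 of the 9888 reached 2-fold, but 1 of the brightest 4944. With resveratrol the counts were 72 and 5. Of the genes described here only TIPARP was in that brighter group. For the others a difference outside the range is less unusual than the range implies. Median signals of the arrays lay between 114 and 136. Of 5 mesenchymal markers 4 passed the filter, VIM, CDH2 and LGALS1 with at least 7920 on every array and TAGLN close to the filter, and S100A4 did not pass, while the 4 epithelial markers CDH1, EPCAM, KRT5 and KRT19 lay under the filter. Of 5 blood cell markers only HBB, a globin gene, had a mean that passed the filter. It read 227 to 522, and with the compounds its log2 differences from untreated were 0.40 to 0.87. Passing the filter therefore does not by itself show expression.

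The receptor gene AHR varied little. It read 1364 with catechin, 1326 with epicatechin, 1222 with taxifolin, 1177 with resveratrol, 1041 with pycnogenol serum, 1056 with control serum and 1281 in the untreated culture. The 2 serum arrays were the lowest and the catechin array the highest, a span of 1.31-fold. Against the untreated array the log2 differences were 0.09, 0.05, -0.07 and -0.12 for catechin, epicatechin, taxifolin and resveratrol, and -0.28 for control serum. Pycnogenol serum and control serum differed by -0.02 in AHR.

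ARNT, the partner that the receptor shares with the hypoxia factors, stood out on the resveratrol array. Its brightest probe set read 488 with catechin, 463 with epicatechin, 534 with taxifolin, 712 with resveratrol, 572 with pycnogenol serum, 473 with control serum and 421 in the untreated culture. Resveratrol gave the highest reading and the untreated culture the lowest, and their log2 difference of 0.76 lay outside the central 95% of all genes in that comparison, -0.56 to 0.56. The difference was 0.59 when the mean of the other 4 arrays without test serum replaced the untreated array. The other 6 ARNT probe sets all lay under the filter and did not share 1 pattern. The brighter pair of them read 212 and 193 with resveratrol against 241 and 175 in the untreated culture, which are log2 differences of -0.18 and 0.14. The remaining 4 fell under 34.9 on 1 to 6 of the 7 arrays, and their sizes are not interpreted. The ARNT difference with resveratrol therefore rests on 1 probe set.

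AHRR, the repressor of the receptor, had the widest span of the 6 compared genes, 1.79-fold. It read 677 with catechin, 669 with epicatechin, 702 with taxifolin, 508 with resveratrol, 391 with pycnogenol serum, 404 with control serum and 612 in the untreated culture. Both serum arrays were below all 5 others, and resveratrol was the lowest of those 5. The log2 difference of control serum from untreated was -0.60, inside that comparison's central range of -0.75 to 0.64, and pycnogenol serum differed from control serum by -0.05. Against untreated the compounds gave 0.15 for catechin, 0.13 for epicatechin, 0.20 for taxifolin and -0.27 for resveratrol. The annotation also lists a readthrough transcript, PDCD6-AHRR, and whether the probe set reads it was not tested.

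TIPARP had the narrowest span, 1.28-fold. The signal was 6404 with catechin, 5673 with epicatechin, 5799 with taxifolin, 6259 with resveratrol, 4999 with pycnogenol serum, 5447 with control serum and 5837 in the untreated culture. The serum arrays were again the lowest, and none of the compounds was more than 0.13 above or 0.04 below the untreated array on the log2 scale. Pycnogenol serum differed from control serum by -0.12.

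CYP1A1, the hydroxylase whose induction is the standard readout of receptor activity, was not near 2-fold in any of the comparisons. It read 362 with catechin, 309.7 with epicatechin, 336 with taxifolin, 321 with resveratrol, 451 with pycnogenol serum, 397 with control serum and 294 in the untreated culture. The untreated culture gave the lowest signal and the serum arrays the highest, above all 5 others. The log2 differences from untreated were 0.30, 0.08, 0.19 and 0.13 for catechin, epicatechin, taxifolin and resveratrol, and 0.43 for control serum, all inside the central range of their comparisons. Pycnogenol serum differed from control serum by 0.18 and from the untreated array by 0.62. The signals lay near the filter and were not shown to be above background. The globin gene HBB, in a similar range, was also lowest in the untreated culture, at 227, and highest with pycnogenol serum, at 522. Its log2 differences from untreated were 0.80, 0.58, 0.40 and 0.87 for the compounds in the same order and 0.75 for control serum. Whether CYP1A1 was expressed was not tested, so a lack of induction is not read from these values.

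CYP1A2, the neighbouring paralog on chromosome 15 known mainly from liver, was read from an _x_at probe set, a class whose probes can bind other transcripts. Its signals were 426 with catechin, 387 with epicatechin, 352 with taxifolin, 295 with resveratrol, 254 with pycnogenol serum, 359 with control serum and 281 in the untreated culture. Catechin was highest, with a log2 difference of 0.60 from untreated, outside the central range of -0.52 to 0.54, and it was also highest on the other probe set, at 121 against 70.7 in the untreated culture, a difference of 0.77. The 2 probe sets parted for epicatechin, at 0.46 and -0.24, and for taxifolin, at 0.32 and -0.64. The second probe set was under the filter on all arrays. Set against the average of epicatechin, taxifolin and resveratrol in place of the untreated array, the catechin difference was 0.31. Pycnogenol serum differed from control serum by -0.50 on the first probe set and by -0.01 on the second. The ratio of 3′ to 5′ signal of the ACTB control probe sets is a measure of RNA integrity and labelling. It was 3.56, 4.02 and 3.05 with catechin, epicatechin and taxifolin, 2.52 with resveratrol, 2.82 with pycnogenol serum, 2.55 with control serum and 2.40 in the untreated culture. The same ratio of the GAPDH control probe sets differed little, from 0.961 with resveratrol to 1.12 in the untreated culture. The part of RNA integrity or labelling in the CYP1A2 readings was not tested.

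CYP1B1, a CYP1 enzyme that many mesenchymal cells express, was not measured above the filter. All of its 4 probe sets had a mean signal under the filter, and the highest single reading was 125. The brightest read 65.6 with catechin, 125 with epicatechin, 78.3 with taxifolin, 68.7 with resveratrol, 4.51 with pycnogenol serum, 61.4 with control serum and 82.9 in the untreated culture. The next read 5.57 with catechin, 64.8 with epicatechin, 15.8 with taxifolin, 97.3 with resveratrol, 59.4 with pycnogenol serum, 76.2 with control serum and 111 in the untreated culture. The array that was lowest on one was not lowest on the other, and no direction is read from these signals. No detection calls were at hand, so a CYP1B1 level could not be told from background.

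**Figure D2:**
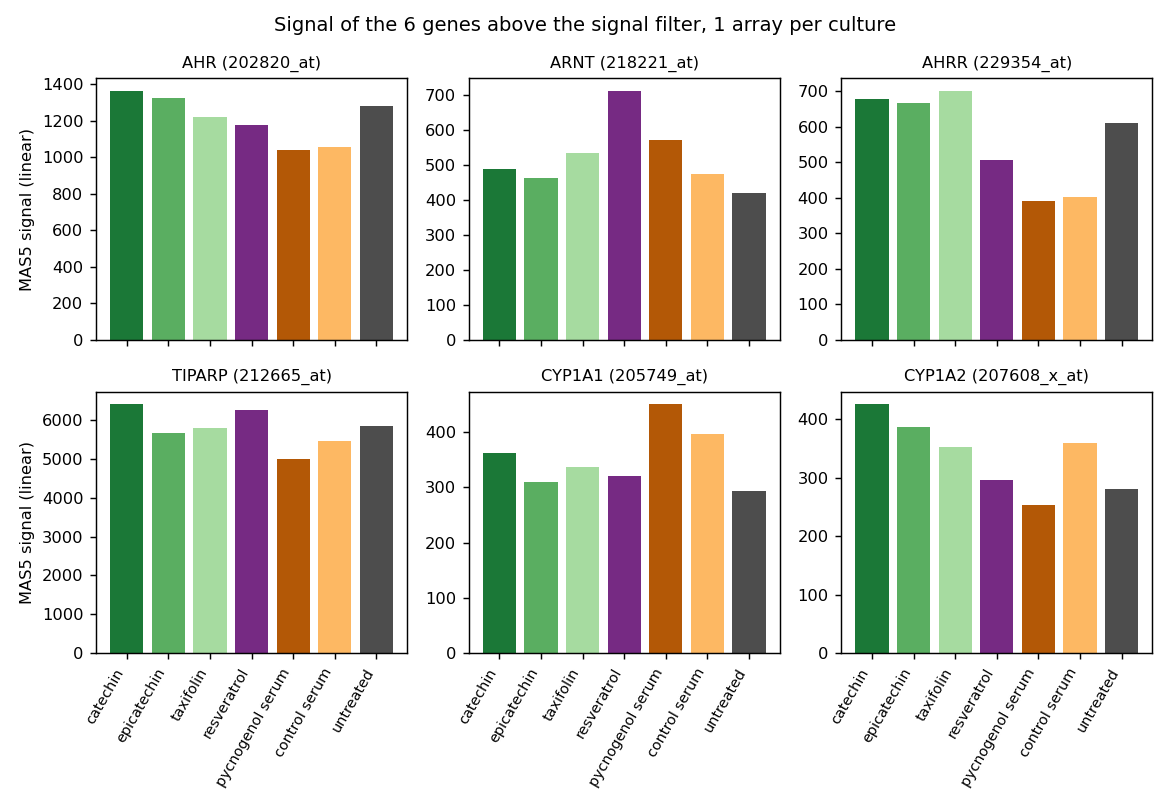
MAS5 signal on a linear axis from 0 for the 6 genes above the filter, 1 bar per array, with 1 array per culture and so no error bars. The serum bars are the lowest for AHR, AHRR and TIPARP and the highest for CYP1A1, and the resveratrol bar is the highest for ARNT.

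**Figure D3:**
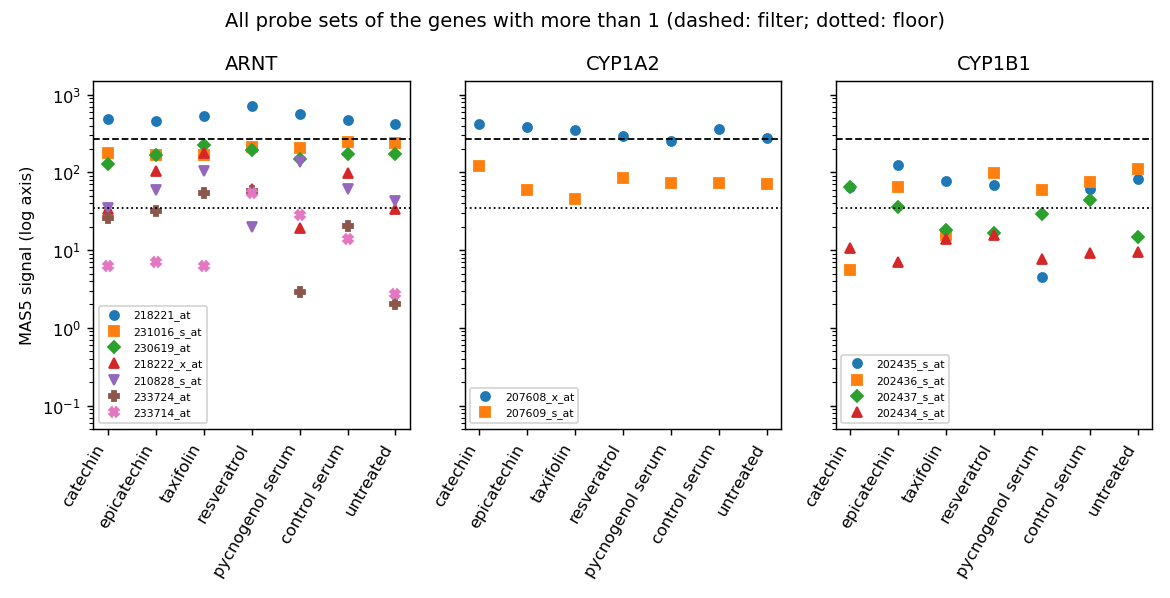
MAS5 signal on a log axis for all probe sets of ARNT, CYP1A2 and CYP1B1, with 1 point per array and 1 symbol per probe set. The dashed line is the filter at 269 and the dotted line the floor at 34.9, and 1 probe set each of ARNT and CYP1A2 and none of CYP1B1 has a mean above the dashed line.

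Counted at 2-fold, none of the 6 compared genes differed in any comparison. The shares of all 9888 compared genes at or past 2-fold against the untreated array were 0.455% for catechin, 0.314% for epicatechin, 0.465% for taxifolin and 0.728% for resveratrol, so a count of 0 in 6 is near the background. The same shares were 0.536% for pycnogenol serum against control serum and 1.20% for control serum against the untreated array. With catechin all 6 genes lay above 0, with a median log2 difference of 0.18, and of all genes 57.6% did so, their median being 0.035. The median of the 6 was 0.10 with epicatechin, 0.20 with taxifolin and 0.09 with resveratrol. The 4 compounds share the untreated array, on which CYP1A1 and ARNT had their lowest reading, so these medians are not independent of one another. For pycnogenol serum against control serum the median was -0.03 and for control serum against untreated 0.04.

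Epicatechin and taxifolin were the only compounds given at the same dose, 6.25 ng/ml, and time. Taxifolin is a dihydroflavonol and carries a ketone on the ring where epicatechin, a flavan-3-ol, has none. The log2 differences of taxifolin from epicatechin were 0.21 in ARNT, 0.12 in CYP1A1, 0.07 in AHRR, 0.03 in TIPARP, -0.12 in AHR and -0.13 in CYP1A2. All 6 lay inside the central range of -0.55 to 0.50, none reached 2-fold against a background of 0.324%, and without replicates no interval of a difference can be given. Catechin, the stereoisomer of epicatechin, was given at 11.25 ng/ml and is not compared with it.

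**Figure D4:**
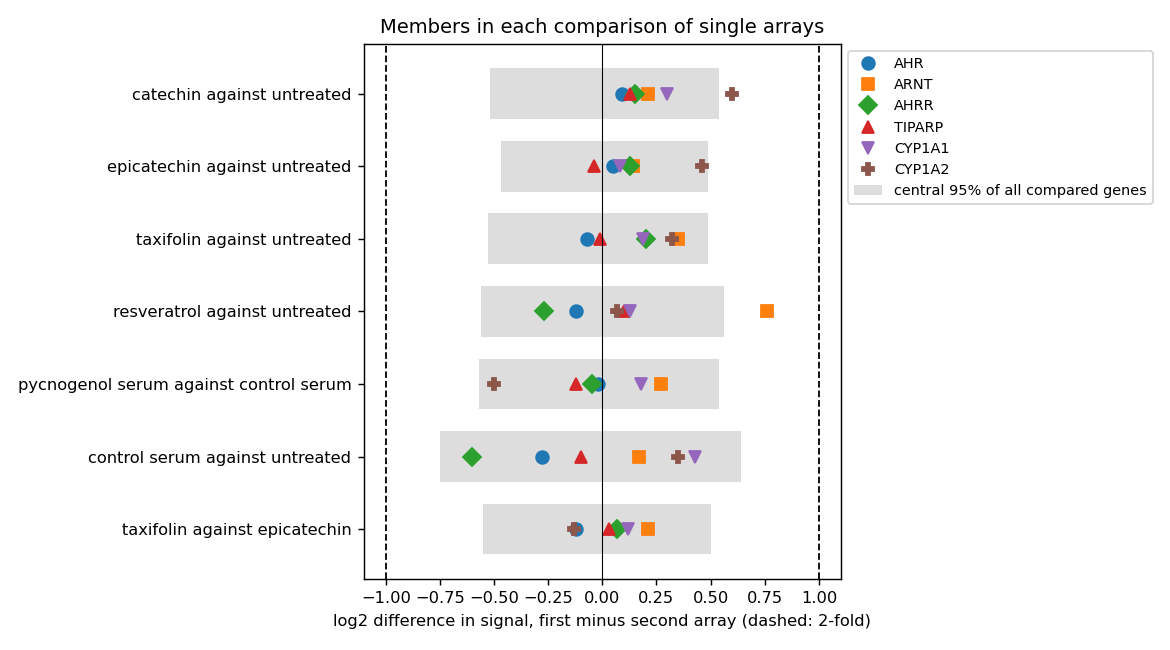
Log2 difference in signal, first minus second array, for the 6 compared genes in each of the 7 comparisons, with grey bars for the central 95% of all 9888 compared genes and dashed lines at 2-fold. The 2 points outside a grey bar are CYP1A2 with catechin at 0.60 and ARNT with resveratrol at 0.76.

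The serum arrays together stood outside the range of the 5 arrays without test serum for 4 of the 6 genes, AHR, AHRR and TIPARP below and CYP1A1 above. Of all compared genes 29.6% did so, 16.1% below and 13.5% above. The geometric mean signal of AHRR was 397 on the serum arrays against 629 on the arrays without test serum. Its log2 difference was -0.66, where the central 95% of all genes ran from -0.63 to 0.50. For CYP1A1 the same means were 423 and 324, a difference of 0.39, and the differences were -0.28 in AHR and -0.20 in TIPARP. The arrays without test serum include 4 compounds and the serum arrays 2 different sera, so these are not replicates. With each array centred on its median, which moved the median difference of all genes from -0.01 to 0.11, AHR and TIPARP overlapped and AHRR and CYP1A1 did not. Of all compared genes 6.1% then lay below and 26.4% above.

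Among genes whose signal spanned at least 2-fold over the arrays, 685 in all, those most like each gene were found by Pearson's r of log2 signal over the 7 arrays. For CYP1A1 they were PRICKLE2 at 0.980, DLX2 at 0.974 and NOX4, an NADPH oxidase gene, at 0.971. NOX4 read 959 with pycnogenol serum, 729.7 with control serum and 381 in the untreated culture, so this likeness follows the serum arrays. For AHRR they were KIAA1217 at 0.977, WIPI1 at 0.968 and LRP8-DT at 0.966, and for AHR they were LMO4 at 0.971, DHTKD1 at 0.960 and ALDH1L2 at 0.949. OAF, PARAIL and SH2D1B were most like TIPARP, at 0.954, 0.940 and 0.936. The genes named for AHR, AHRR and TIPARP also followed the serum arrays, being lower on both than on every other array. KIAA1217 read 441 with pycnogenol serum and 470 with control serum, against at least 787 on the others. The genes most like ARNT were TP53BP1 at 0.959, FHAD1 at 0.885 and PPP2R5B at 0.878, and those most like CYP1A2 were SMPD2 at 0.907, MIR302B at 0.880 and USP46-DT at 0.845. These are the highest of many values over 7 points, all from the same arrays.

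Other genes of the pathway were read from 7 lists with 56 names, of which 52 were measured and 36 passed the filter. The listed names without a measured gene were not analysed here. With each of the compounds 0 of the 36 differed by 2-fold, and the same held for pycnogenol serum against control serum and for taxifolin against epicatechin. With control serum against untreated 1 was higher, HMOX1, the heme-degrading oxygenase, at 1.71, and 1 was lower, the cytokine gene IL1B, at -1.66, against the background of 1.20%. The list median over the 36 was between -0.09 and 0.02 in all 7 comparisons.

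The chaperones that hold the receptor were close to level. HSP90AA1, HSP90AB1 and PTGES3, which encodes p23, differed from the untreated array by -0.04 to 0.17 with the compounds, and by 0.12, 0.28 and 0.17 with control serum. In the same list SRC, a kinase reported in the receptor complex, was at -0.91 with catechin. It read 182 there, under the filter, against 344 in the untreated culture.

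Of the bHLH-PAS relatives, HIF1A and EPAS1, the hypoxia factors that also pair with ARNT, and CLOCK, a circadian factor, differed by no more than 0.15 with any compound. These were the 3 brightest of the list, and over all 9 relatives compared the differences with the compounds ran from -0.70 to 0.20. ARNT2 was at -0.37 with catechin, -0.21 with epicatechin, -0.51 with taxifolin and -0.43 with resveratrol against untreated. BMAL1 was at -0.70 with epicatechin against untreated and at 0.61 for taxifolin against epicatechin. NPAS2 was at -0.96 and ARNT2 at -0.83 with control serum against untreated. NPAS2 read 1885 with pycnogenol serum, 1828 with control serum and 3566 in the untreated culture. Both serum readings were lower than the untreated one and close to each other, with a log2 difference of 0.04.

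Among enzymes known as receptor targets only NQO1, a quinone reductase that NRF2 also controls, passed the filter. NQO1 read 8744 with catechin, 9779 with epicatechin, 9122 with taxifolin, 9007 with resveratrol, 9106 with pycnogenol serum, 10138 with control serum and 8344 in the untreated culture. Its untreated signal was the lowest, and the differences from it were 0.07, 0.23, 0.13 and 0.11 for the compounds and 0.28 for control serum. GSTA1 read 201 to 273, around the filter, and CYP2S1 no more than 139. Of 8 other reported targets compared, the median was -0.26 for pycnogenol serum against control serum, with 7 below 0, where 51.6% of all genes lay above 0 with a median of 0.008. IL1B was at -0.70, NFE2L2, the NRF2 gene, at -0.38 and the amino acid transporter SLC7A5 at -0.14. XDH, xanthine dehydrogenase, was the one above 0, at 0.07. The list was not shifted in that comparison alone. Against untreated its median was -0.24 with control serum, with 6 below 0, and 0.10 with epicatechin, with 7 above 0. With the other compounds the median lay between -0.01 and 0.10. PTGS2, the inducible cyclooxygenase, was at -0.88 with control serum against untreated.

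None of the 7 genes of tryptophan breakdown, a known source of receptor ligands, passed the filter, and IDO1, IL4I1 and TDO2 were the brightest of them. All 8 mono-ADP-ribosyltransferases and relatives of TIPARP did. PARP11 had the largest difference among them, 0.95 with epicatechin against untreated, while ZC3HAV1, PARP6 and PARP12 stayed between -0.38 and 0.27 with the compounds. Of the P450 electron partners, POR, the reductase that CYP1 enzymes need, was at 0.16 with catechin, 0.09 with epicatechin, 0.01 with taxifolin and -0.08 with resveratrol against untreated, and at 0.35 between pycnogenol serum and control serum. CYB5R3 was at 0.53 and CYB5A at -0.10 between the sera.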

How the data were processed

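Affymetrix U133 Plus 2.0 arrays of 7 HT1080 cultures were read from the deposited table of signal intensity, made with MAS5 by the authors per the submitters' processing notes, with version and detection calls not given in the sources used here. The trimmed mean of each array, leaving out 2% at both ends, was checked and was 1000. Probe sets were named from the platform annotation with symbols updated through RefSeq, which left 41091 probe sets with 1 gene after the 62 control probe sets were set aside, and 1801 with several genes were left out. Signals were floored at the 25th percentile, 34.9, and put on the log2 scale, and the probe set with the highest mean was read for each gene. Computation used Python with pandas 2.3.3 and statsmodels 0.14.6, and was tested on simulated data.

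Groups follow the labels and hold 1 array each, so there was no test and the number of arrays limits the precision. Differences were taken on the log2 scale as first array minus second, and 2-fold was the threshold. Named genes were all 7 genes, pathway genes past 2-fold, the 3 brightest of each list and the 3 genes most like each compared gene, and other genes named were chosen after their values were seen. The genes and lists were chosen with earlier results of these data known. Alternatives changed the normalization, filter, floor, probe set, fold threshold and reference array.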

Additional observations from a re-analysis of the deposited data

How the results depend on the processing

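No paired analysis was possible because each group holds 1 array. Among the genes compared, the count past 2-fold was 0 in all 7 comparisons with other normalizations. These were loess between pairs of arrays (span 0.3), quantile normalization and centring of arrays on their medians. It was 0 as well with the filter left out, where 7 genes were compared. Further settings gave 0 but could not have given more. These included a 3-fold threshold and the floor left out or put at the 40th percentile, which left the compared signals unchanged. The filter at the 75th percentile compared 1 of the genes. Averaging all probe sets of a gene compared 4, and the reading without _x_at and _s_at probe sets 5. Each of these kept its main value. The count was also 0 with the other reference arrays, which were run for the 6 comparisons other than taxifolin against epicatechin. At 1.5-fold it was 1 for catechin (CYP1A2), 1 for resveratrol (ARNT) and 1 for control serum against untreated (AHRR), where 3.55%, 4.46% and 7.83% of all genes passed. The count of genes with both serum arrays outside the range of the others was added after seeing the data. It was 4 in the main reading, where the share of all genes was 29.57%. With centring on the median it became 2, with a share of 32.52%. Under the stricter filter, which left TIPARP alone among the 7 to be compared, it was 1, with a share of 32.26%. Without the filter it was 5, with a share of 18.66%. The gene added there was CYP1B1, whose pycnogenol serum reading of 4.51 was raised to 34.9. Its other probe sets overlapped, and no direction is read from it. Of 382 alternative values of single differences, 17 changed sign, but many of the 382 could not. Changes of filter, floor or probe set repeated the main value of every gene they kept. Among the 16 differences of at least 0.2, 4 of 137 alternative values changed sign, with such repeats again included. All 4 came with other reference arrays: ARNT with catechin at -0.20 and -0.10, ARNT with taxifolin at -0.02 and CYP1A2 with taxifolin at -0.05. Averaged over their probe sets, ARNT and CYP1A2 fell under the filter. Centring put the median of all genes at 0.176 for control serum against untreated, where it was 0.008 before. Signals near the filter of 269, as for CYP1A1 and CYP1A2, were not shown to be above background, which limits how their differences can be read.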

Other observations

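The antisense genes beside TIPARP and CYP1B1 have probe sets of their own on the array. TIPARP-AS1 read 58.6 with catechin, 103 with epicatechin, 71.8 with taxifolin, 97.8 with resveratrol, 82.0 with pycnogenol serum, 49.8 with control serum and 65.8 in the untreated culture. Both CYP1B1-AS1 probe sets read under 34.9 on all 7 arrays, from 2.35 to 27.1. None of these signals reached the filter.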
